A study of Rattus norvegicus with 4 samples.

Results

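The sarcomeric myosin heavy chain genes were examined in single-cell RNA sequencing libraries of rat muscle. They were chosen by name: Myh1, Myh2, Myh3, Myh4, Myh6, Myh7, Myh8 and Myh13. Of these 8 names, 5 matched a symbol among the 25399 genes of the deposited feature table, namely Myh3 (ENSRNOG00000046276), Myh4 (ENSRNOG00000049695), Myh6 (ENSRNOG00000025757), Myh7 (ENSRNOG00000016983) and Myh8 (ENSRNOG00000050042). Myh1, Myh2 and Myh13 were not analysed here, so every share below is a share of the UMIs of the 5 measured genes. The genes are near-identical over long stretches, and how the counting split reads between copies is not given in the sources used here. Values for a single gene of the family are therefore uncertain to that extent.

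The libraries came from rats aged 12 months, 1 library per muscle and state: extraocular muscles (EOM) labelled DMD, EOM labelled WT, tibialis anterior (TA, a limb muscle) labelled DMD and TA labelled WT. DMD is the labels' abbreviation; dystrophin loss causes Duchenne muscular dystrophy, and the eye-moving extraocular muscles are known to resist the disease better than limb muscle. The labels name no strain, allele or number of pooled animals. Groups follow the disease state field, and in all 4 samples the title states the opposite state, so going by titles would flip each direction between DMD and WT given below. The libraries held 3093, 1917, 8944 and 3550 barcodes in the order just given, with 9468266 to 20685086 unique molecular identifiers (UMIs) per library, and any pair of them shared between 1 and 10 barcode sequences. Values are counts per 1000000 UMIs (CPM) of the same library or set of barcodes. With 1 library per group no test was possible and no difference has a replicate check: the 95% intervals are exact Poisson, Clopper-Pearson or binomial-split intervals that cover counting error only.

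A myosin heavy chain carries the motor domain of the thick filament, and the isoform a fibre uses largely sets its speed of contraction. In adult rodent limb muscle, Myh4 encodes the fastest, glycolytic isoform (IIb) and Myh7 the slow isoform, which the heart ventricle also uses. Myh6 encodes the alpha-cardiac isoform, while Myh3 (embryonic) and Myh8 (perinatal) are used by forming and regenerating fibres. Adult extraocular muscle is known to keep developmental and cardiac isoforms beside the limb isoforms. In the RefSeq annotation of rat build GRCr8, Myh3, Myh2, Myh1, Myh4, Myh8 and Myh13 lie in that order on chromosome 10, and Myh6 and Myh7 are neighbours on chromosome 15.

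The upstream sequences of Myh4, the gene with most UMIs in every library, and of Myh3, the developmental gene seen in the most barcodes, are shown from the RefSeq promoter table (build GRCr8, which is not the build of the counts). All 8 names matched a window of 300 bases in that table. Each sequence is the 250 bases before the annotated start, 5′ to 3′ on the plus strand, Myh4 from chr10:52421898-52422147 and Myh3 from chr10:52268935-52269184. Capitals mark, in Myh4, the longest run of letters shared with the windows of Myh1 and Myh2, and in Myh3, the TATAAA that begins 30 bases before the annotated start.
Myh4: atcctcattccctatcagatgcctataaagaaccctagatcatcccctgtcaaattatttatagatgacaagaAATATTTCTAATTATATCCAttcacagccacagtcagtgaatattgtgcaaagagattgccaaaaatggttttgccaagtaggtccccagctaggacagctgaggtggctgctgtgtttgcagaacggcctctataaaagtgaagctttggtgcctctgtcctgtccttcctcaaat
Myh3: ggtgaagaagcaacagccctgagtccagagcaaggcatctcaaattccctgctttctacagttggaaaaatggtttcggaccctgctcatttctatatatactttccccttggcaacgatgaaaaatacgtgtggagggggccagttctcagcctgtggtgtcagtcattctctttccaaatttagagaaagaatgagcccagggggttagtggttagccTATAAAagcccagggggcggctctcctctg

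The run of 20 letters shared by the 3 adult fast genes began 177 bases before the annotated start in Myh4, 166 in Myh1 and 170 in Myh2. It was found on either strand in 5 of the 33469 promoter windows of the table (0.0149%). These include the 3 windows it was taken from, so the share is no independent measure of rarity. The remaining ones carried the symbol LOC102555216. TATAAA, searched on both strands, was found in 14.2% of all windows and in those of Myh1, Myh2, Myh3 and Myh4. The E-box pattern CANNTG was found in 72.1% of all windows, with 3 matches in the Myh4 window and 1 in the Myh3 window. A match is a description of letters only. The flanks of the shared run are given for comparison, as chr10:52421951-52422010 (Myh4), chr10:52384726-52384785 (Myh1) and chr10:52355549-52355608 (Myh2), all on the plus strand, with the run in capitals.
Myh4: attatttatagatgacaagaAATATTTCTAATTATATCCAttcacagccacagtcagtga
Myh1: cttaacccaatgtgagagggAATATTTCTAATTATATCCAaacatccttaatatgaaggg
Myh2: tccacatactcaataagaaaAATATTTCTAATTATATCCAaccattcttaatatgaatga

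Over all deposited barcodes, the fast gene Myh4 made up most of the measured myosin heavy chain RNA in every library, and the libraries parted in what came next. In TA labelled WT the second gene was the slow Myh7. In both EOM libraries and in TA labelled DMD it was the embryonic Myh3. Myh4 had 1065 UMIs (71.2 CPM, 67.0 to 75.6) in EOM labelled DMD, 226 UMIs (23.9 CPM) in EOM labelled WT, 1095 UMIs (52.9 CPM) in TA labelled DMD and 878 UMIs (88.2 CPM) in TA labelled WT. Its share of the UMIs of the 5 genes was 84.5%, 85.3%, 96.3% and 78.9% in the same libraries. Myh7 had 43 UMIs (2.88 CPM) in EOM labelled DMD, 2 UMIs (0.211 CPM) in EOM labelled WT, 4 UMIs (0.193 CPM) in TA labelled DMD and 231 UMIs (23.2 CPM, 20.3 to 26.4) in TA labelled WT. TA labelled WT thus stood alone, with a Myh7 share of 20.8% (18.4 to 23.3) against at most 3.41% in the other libraries.

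The developmental genes were most abundant in EOM labelled DMD. Myh3 had 98 UMIs (6.55 CPM) in EOM labelled DMD, 25 UMIs (2.64 CPM) in EOM labelled WT, 33 UMIs (1.60 CPM) in TA labelled DMD and 1 UMI (0.100 CPM) in TA labelled WT. Myh8 had 41 UMIs (2.74 CPM) in EOM labelled DMD, 8 UMIs (0.845 CPM) in EOM labelled WT, 2 UMIs (0.0967 CPM) in TA labelled DMD and 0 UMIs in TA labelled WT, where 3 counts would be 0.301 CPM. Both genes were therefore highest in EOM labelled DMD and lowest in TA labelled WT. For Myh3 the intervals of EOM labelled WT (1.71 to 3.90 CPM) and TA labelled DMD (1.10 to 2.24 CPM) overlapped. Myh6 was rare, with 13 UMIs in EOM labelled DMD, 4 in EOM labelled WT, 3 in TA labelled DMD and 3 in TA labelled WT.

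**Figure D1:**
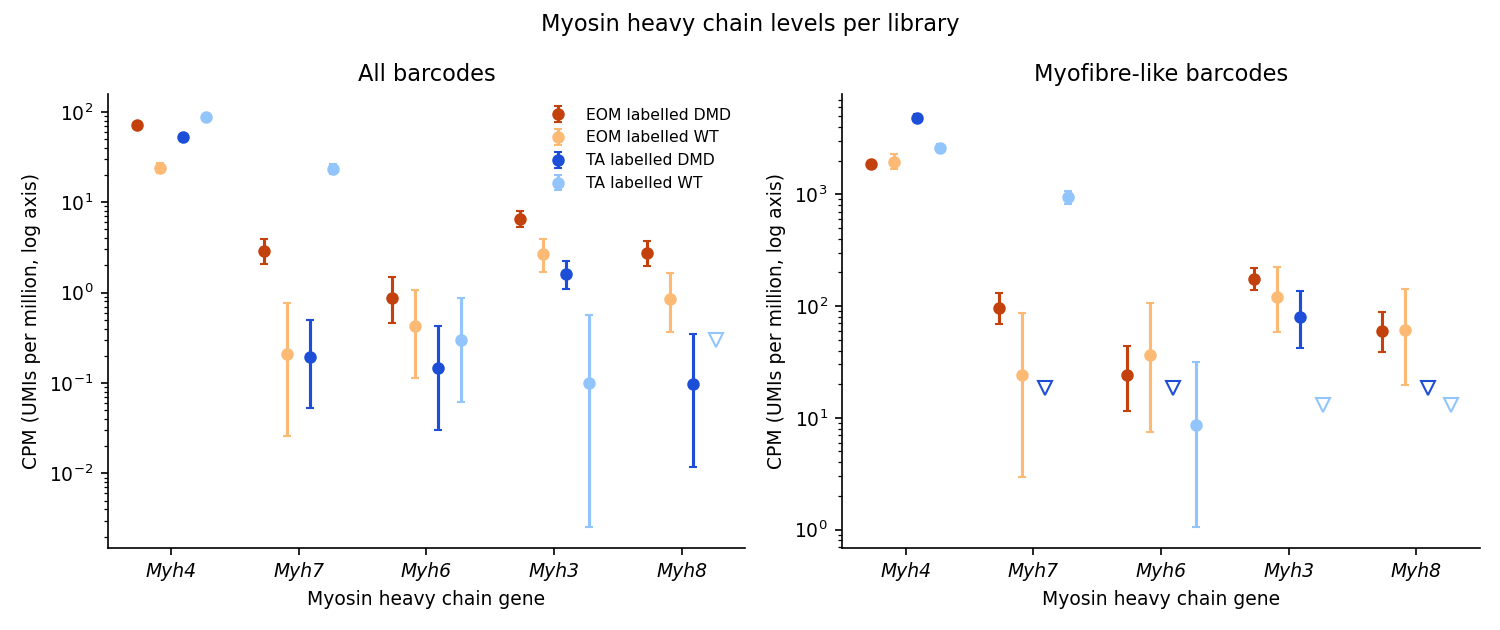
CPM of each measured myosin heavy chain gene per library (log axes), over all barcodes at left and in myofibre-like barcodes at right; points are single libraries, bars are 95% Poisson intervals, and open triangles stand at the level of 3 counts where no UMI was found. Myh4 leads everywhere, Myh7 is high in TA labelled WT, and Myh8 reaches 60.1 and 60.5 CPM in EOM fibres with no UMI in TA fibres.

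Summed over the 5 genes, the level was 84.3 CPM (1260 UMIs) in EOM labelled DMD, 28.0 CPM (265 UMIs) in EOM labelled WT, 55.0 CPM (1137 UMIs) in TA labelled DMD and 112 CPM (1113 UMIs) in TA labelled WT. EOM labelled DMD was thus 3.01-fold above EOM labelled WT (2.64 to 3.45), and TA labelled DMD was 2.03-fold below TA labelled WT (1.87 to 2.21). The log2 ratios with the prior were 1.31 and -0.91, and 0.94 and -1.48 with mitochondrial and haemoglobin genes left out of the denominator. In whole libraries, fewer fibre fragments and less RNA per fragment cannot be told apart: myofibre-like barcodes, defined next, were 4.98%, 1.93%, 1.14% and 3.66% of the barcodes of EOM labelled DMD, EOM labelled WT, TA labelled DMD and TA labelled WT. At least 10 UMIs over both libraries were asked of a gene, which all 5 members reached in EOM labelled DMD over EOM labelled WT and over TA labelled DMD, and 3 in the other contrasts. Past 2-fold, on a log2 scale with a prior of 10 CPM on both sides (added to each level before the ratio), stood 1 member in EOM labelled DMD over EOM labelled WT (Myh4, 1.26), where 2.04% of all genes tested did, and 1 in TA labelled DMD over TA labelled WT (Myh7, -1.70), where 5.23% did. None of the 5 did in EOM labelled DMD over TA labelled DMD (3.80% of all genes). Both Myh4 (-1.54) and Myh7 (-1.70) did in EOM labelled WT over TA labelled WT (4.41%). The prior shrinks the ratios of rare genes. Myh3, Myh6 and Myh8, at 6.55 CPM or less in every library, could not pass 2-fold with it. Nor could Myh7 in contrasts without TA labelled WT. As plain folds, Myh7 was 120-fold lower in TA labelled DMD than in TA labelled WT (46.2 to 444). Myh3 was 2.48-fold higher in EOM labelled DMD than in EOM labelled WT (1.59 to 4.02). EOM labelled DMD exceeded TA labelled DMD 28.4-fold in Myh8 (7.37 to 242) and 14.9-fold in Myh7 (5.40 to 57.0). It did so 5.99-fold in Myh6 (1.65 to 32.8) and 4.11-fold in Myh3 (2.74 to 6.29). These 4 contrasts share libraries and are not independent.

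Myofibre-like barcodes formed a single cluster, found with every Myh gene left out of the clustering, so that the members did not define it. It held 154 barcodes of EOM labelled DMD, 37 of EOM labelled WT, 102 of TA labelled DMD and 130 of TA labelled WT, and 9 of its 10 leading genes were fibre markers such as skeletal actin. All 15 fibre markers with a symbol were detected in it in each library, at a summed 178281 to 270030 CPM. The satellite cell factor Pax7 was at 0 in all 4, but other satellite cell markers were not. Of the 9 on that list, 5 had UMIs in EOM labelled DMD, 3 in EOM labelled WT, 6 in TA labelled DMD and 4 in TA labelled WT. They summed to 3447, 2335, 9618 and 3000 CPM. That list includes the muscle filament gene desmin (Des), which had UMIs in every library. Of 5 myocyte markers, 4, 3, 5 and 3 had UMIs in the same libraries, at a summed 3298, 2879, 1899 and 299 CPM. Most of that sum was Actc1 in the EOM libraries and Myl4 in the TA libraries. Whether satellite cells or myocytes were among these barcodes was not tested. Median depth was 970.5 to 1834 UMIs per barcode. Whole fibres are too large for a droplet, so these barcodes were taken as fibre fragments, which was not tested. Markers of other cells also moved with the library: FAP/fibroblast markers summed to 79.3 CPM in EOM labelled DMD, 24.2 in EOM labelled WT, 299 in TA labelled DMD and 4.33 in TA labelled WT, and endothelial markers to 16.8, 12.1, 232 and 156 CPM. Their part in the results on fibres was not tested.

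Within these barcodes the difference in Myh4 between the EOM libraries was gone, and in the TA libraries it had the other sign. Myh4 stood at 1856 CPM (1727 to 1991, 772 UMIs) in EOM labelled DMD and 1960 CPM (1670 to 2286, 162 UMIs) in EOM labelled WT, a ratio of 0.947 (0.798 to 1.13). It stood at 4861 CPM (796 UMIs) in TA labelled DMD and 2601 CPM (601 UMIs) in TA labelled WT, 1.87-fold higher (1.68 to 2.08), which is short of the 2-fold mark. A single barcode of TA labelled DMD, with 184 Myh4 UMIs among 18471, held 16.8% of the Myh4 UMIs of that library. Without the richest barcode of each library the log2 ratio in TA was 0.65 in place of 0.90. The rise was also smaller where fibres were taken as barcodes with 10% or more of their UMIs in fibre markers. It was then 1.35-fold (1.21 to 1.51, log2 ratio 0.43), outside the interval above. With 5% or more the log2 ratio was 0.58. Against TA labelled DMD, EOM labelled DMD was 2.62-fold lower in Myh4 (2.37 to 2.90), and against TA labelled WT, EOM labelled WT was 1.33-fold lower (1.11 to 1.59).

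Myh7 set TA labelled WT apart from the other fibres. It had 40 UMIs in EOM labelled DMD (96.2 CPM), 2 in EOM labelled WT (24.2 CPM), 0 among 163752 UMIs in TA labelled DMD and 217 in TA labelled WT (939 CPM, 818 to 1073). With the 0 set to 3 counts, TA labelled DMD was 51.3-fold lower than TA labelled WT. The counting interval, taken with the 0 as it was, began at 41.3-fold. EOM labelled WT was 38.8-fold lower than TA labelled WT (10.6 to 323). The Myh7 UMIs of TA labelled WT lay in few barcodes: over the whole library 28 barcodes held the 231 UMIs, and the richest pair held 78 and 62 of them.

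Of the embryonic gene Myh3, myofibre-like barcodes had 73 UMIs in EOM labelled DMD (175 CPM, 138 to 221), 10 in EOM labelled WT (121 CPM), 13 in TA labelled DMD (79.4 CPM) and 0 in TA labelled WT. The EOM libraries did not differ beyond counting error (1.45-fold, 0.746 to 3.15), and the direction turned where fibres were taken as barcodes with 10% or more of their UMIs in fibre markers, with 152 CPM in EOM labelled DMD and 224 CPM in EOM labelled WT (log2 ratio -0.53). With the 0 of TA labelled WT set to 3 counts, TA labelled DMD was 6.11-fold and EOM labelled WT 9.32-fold above it. The counting intervals began at 4.30-fold and 6.27-fold. In TA labelled DMD all 13 UMIs came from 2 barcodes, with 7 and 6 UMIs, whereas in EOM labelled DMD 21 barcodes carried the gene. Perinatal Myh8 had 25 UMIs in EOM labelled DMD (60.1 CPM, in 19 barcodes), 5 in EOM labelled WT (60.5 CPM, in 5 barcodes) and 0 in each TA library. The alpha-cardiac gene Myh6 had 10, 3, 0 and 2 UMIs in EOM labelled DMD, EOM labelled WT, TA labelled DMD and TA labelled WT.

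Counted in the fibres, 1 of the 5 members was past 2-fold in EOM labelled DMD over EOM labelled WT (Myh7, 1.63 on the log2 scale, on 40 and 2 UMIs), against 16.7% of all genes tested there. In TA labelled DMD over TA labelled WT, 3 members reached the minimum of 10 UMIs over both libraries and 2 of them were past 2-fold, Myh7 (-6.57) and Myh3 (3.16), against 31.8% of all genes. In EOM labelled DMD over TA labelled DMD all 5 were, Myh4 lower (-1.38) and Myh7 (3.41), Myh6 (1.77), Myh3 (1.05) and Myh8 (2.81) higher, against 29.5%. In EOM labelled WT over TA labelled WT, 3 members reached the minimum and 2 were past 2-fold, Myh7 (-4.79) and Myh3 (3.71), against 24.4%. The log2 values of genes with a library at 0 depend on the prior. Against 3 counts in TA labelled DMD, EOM labelled DMD was 5.25-fold higher in Myh7, 3.28-fold in Myh8 and 1.31-fold in Myh6. The counting intervals began at 4.07-fold, 2.48-fold and 0.882-fold. The counts of Myh6, 10 UMIs against 0, thus do not show a 2-fold difference, nor any difference beyond counting error. The Myh3 call in TA labelled DMD over TA labelled WT missed the minimum of UMIs without the richest barcode of each library, where 6 UMIs remained and the log2 ratio was 2.36. In EOM labelled DMD over TA labelled DMD, Myh4 stood at -0.99 where Myh genes entered the clustering, and Myh3 at 0.22 where fibres were taken as barcodes with 5% or more of their UMIs in fibre markers.

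**Figure D2:**
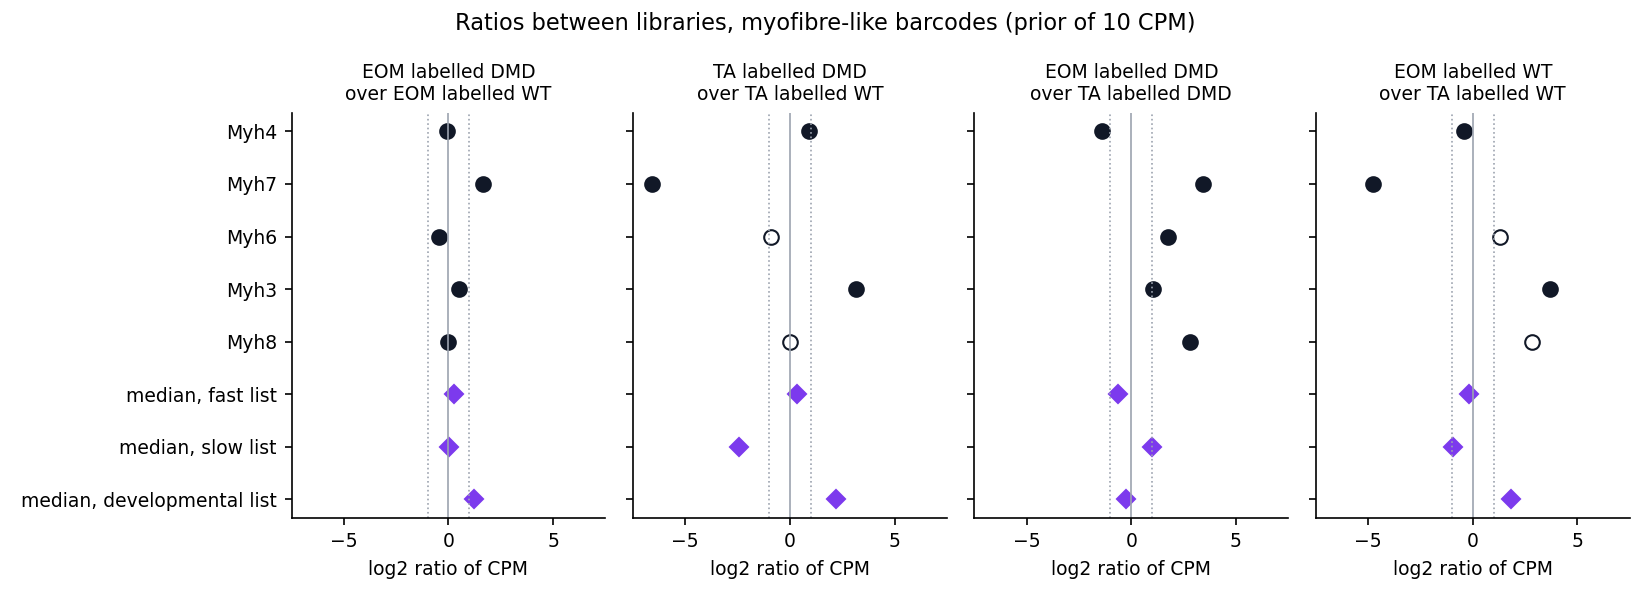
Log2 ratios of CPM in myofibre-like barcodes for the measured myosin heavy chain genes (circles, open where both libraries hold under 10 UMIs together) and medians of fibre gene lists (diamonds) in the 4 contrasts; dotted lines mark 2-fold. Myh7 lies at -6.57 and the slow list median at -2.45 in TA labelled DMD over TA labelled WT.

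The other slow genes were low beside Myh7 in fibres of TA labelled DMD. Of 12 slow fibre genes with 10 or more UMIs, 9 were 2-fold or more lower than in TA labelled WT (16.8% of all genes were) and 0 higher, with a median log2 ratio of -2.45 against -0.01 over all genes tested. The slow troponin T gene Tnnt1 had 434 CPM in TA labelled DMD and 5415 CPM in TA labelled WT (-3.61). The slow myosin light chains Myl3 (379 and 9700 CPM, -4.64) and Myl2 (287 and 3571 CPM, -3.59), partners of the slow heavy chain, were lower too, as was the oxygen store myoglobin (Mb, 5325 and 22006 CPM, -2.04). Of 14 fast fibre genes 4 were higher (15.1% of all genes were), namely the calcium buffer Pvalb (1.99), the Z-disc gene Actn3 (1.49) and the fast light chains Myl1 (1.09) and Mylpf (1.04), and 1 was lower, the glycolytic enzyme Pfkm (-1.28). Of 5 genes of the developmental list, 4 were higher in TA labelled DMD, with a median of 2.18: the embryonic light chain Myl4 (1679 CPM in TA labelled DMD, 212 in TA labelled WT), Chrna1, Tnnt2 and Myog.

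Between the EOM libraries, 1 of 12 slow genes was 2-fold or more higher (10.4% of all genes were) and 1 lower (6.23%), with a median of 0.02 against 0.01 over all genes. The developmental list had 3 of 5 genes 2-fold or more higher, with a median of 1.20: Myl4 (601 CPM in EOM labelled DMD, 84.7 in EOM labelled WT), Tnnt2 and Myog. Between muscles the developmental list was divided. Of 5 genes, 1 was higher in EOM labelled DMD than in TA labelled DMD, Actc1 (17.5% of all genes were), and 2 were lower, Myl4 (-1.47) and Chrna1 (-2.24) (12.0% were), with a median of -0.24 against 0.17 over all genes. Where fibres were taken as barcodes with 10% or more of their UMIs in fibre markers, 4 genes reached the minimum. Their median was 1.14 against 0.16 over all genes. Actc1 and Myog were then higher (17.9% of all genes were) and Myl4 was lower (10.8% were). In EOM labelled WT over TA labelled WT, 2 of 3 were higher, Actc1 and Tnnt2 (11.9% of all genes were), and Myl4 was lower (-1.23, 12.5% were). Cardiac actin (Actc1), which developing fibres also use, stood far higher in EOM fibres, at 2635 CPM in EOM labelled DMD, 2783 in EOM labelled WT, 104 in TA labelled DMD and 64.9 in TA labelled WT. Of the regulators of myosin genes, Tbx15, a factor tied to glycolytic fibres in mice, had 149, 169, 55.0 and 17.3 CPM in EOM labelled DMD, EOM labelled WT, TA labelled DMD and TA labelled WT. Myh15, a family member known from extraocular muscle, had 17, 0, 2 and 1 UMIs in the same libraries.

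Myosin UMIs were next set against troponins of the same barcodes. A barcode was called slow or fast where 80% or more of the UMIs of 6 troponin genes, with at least 10 such UMIs, came from the slow (Tnnt1, Tnni1, Tnnc1) or the fast ones (Tnnt3, Tnni2, Tnnc2). This division was chosen after values had been seen. Slow barcodes numbered 21 of 154 in EOM labelled DMD (13.6%, 8.64 to 20.1), 1 of 37 in EOM labelled WT (2.70%), 2 of 102 in TA labelled DMD (1.96%, 0.238 to 6.90) and 18 of 130 in TA labelled WT (13.8%, 8.42 to 21.0). EOM labelled DMD and TA labelled WT thus held nearly the same share of slow barcodes. Their myosin content differed: for every 100 slow troponin UMIs, slow barcodes held 1.30 Myh7 UMIs in EOM labelled DMD (0.925 to 1.77) and 7.94 in TA labelled WT (6.86 to 9.14).

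Slow barcodes of EOM labelled DMD carried 40 Myh7, 27 Myh4, 21 Myh3 and 10 Myh6 UMIs. Those of TA labelled WT carried 209 Myh7, 0 Myh4, 0 Myh3 and 2 Myh6 UMIs. All 10 Myh6 UMIs of EOM labelled DMD fibres thus lay in slow barcodes, and the single slow barcode of EOM labelled WT held all 3 Myh6 UMIs found in fibres of that library, beside 2 of Myh7. In TA labelled DMD the 2 slow barcodes had 0 Myh7 UMIs beside 81 slow troponin UMIs. The counting interval of that ratio reached 4.66 for every 100, so that a ratio like that of EOM labelled DMD would not be detectable at this depth. Over all myofibre-like barcodes of TA labelled DMD there were 0 Myh7 beside 187 slow troponin UMIs. The interval there reached 1.99 for every 100, against 7.89 (6.84 to 9.06) in TA labelled WT. Without the 2 barcodes richest in Myh7, an alternative chosen after seeing the data, the ratio over all myofibre-like barcodes was 0.768 in EOM labelled DMD (0.486 to 1.15) and 4.38 in TA labelled WT (3.44 to 5.51), in place of 1.07 and 7.89.

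**Figure D3:**
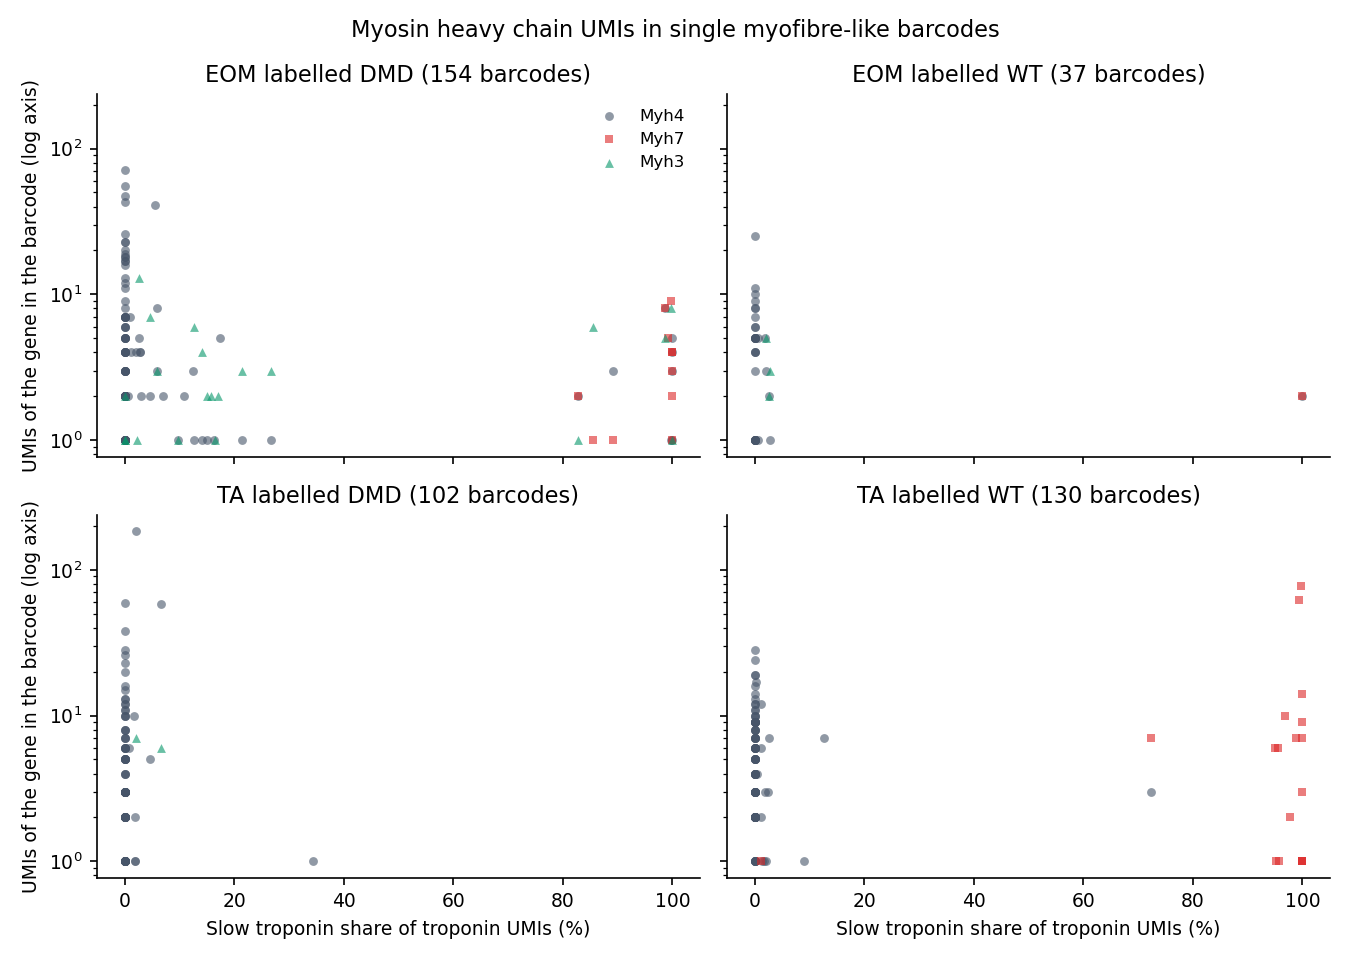
UMIs of Myh4, Myh7 and Myh3 in each myofibre-like barcode (log axis, barcodes with at least 1 UMI of the gene) against the slow troponin share of its troponin UMIs, by library. Myh7 lies at the slow end, with 78 and 62 UMIs in the richest barcodes of TA labelled WT, and Myh3 of EOM labelled DMD lies at both ends and between.

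In fast barcodes, Myh4 reached 2.88 UMIs for every 100 fast troponin UMIs in EOM labelled DMD (2.68 to 3.1) and 3.59 in EOM labelled WT (3.05 to 4.21). The same ratio was 7.51 in TA labelled DMD (6.98 to 8.07) and 4.40 in TA labelled WT (4.04 to 4.77). By this ratio TA labelled DMD lay above the others, and the intervals of EOM labelled WT and TA labelled WT overlapped. In TA labelled DMD, 1 barcode held 184 of the 795 Myh4 UMIs. Against skeletal actin (Acta1) in all myofibre-like barcodes, a ratio chosen after values had been seen, the order differed. For every 100 Acta1 UMIs, EOM labelled DMD held 8.95 Myh4 UMIs (8.30 to 9.64) and EOM labelled WT 8.94 (7.57 to 10.5). TA labelled DMD held 5.64 (5.25 to 6.06) and TA labelled WT 3.97 (3.65 to 4.31). Fast barcodes with no UMI of any of the 5 genes were 28 of 129 in EOM labelled DMD (21.7%), 3 of 36 in EOM labelled WT (8.33%), 13 of 98 in TA labelled DMD (13.3%) and 9 of 111 in TA labelled WT (8.11%). Fast fibres that use Myh1, Myh2 or Myh13 would be counted among them. Embryonic Myh3 occurred in fast barcodes of EOM labelled DMD (46 UMIs in 14 barcodes) and EOM labelled WT (10 UMIs in 3 barcodes), and in slow ones of EOM labelled DMD (21 UMIs in 5 barcodes).

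**Figure D4:**
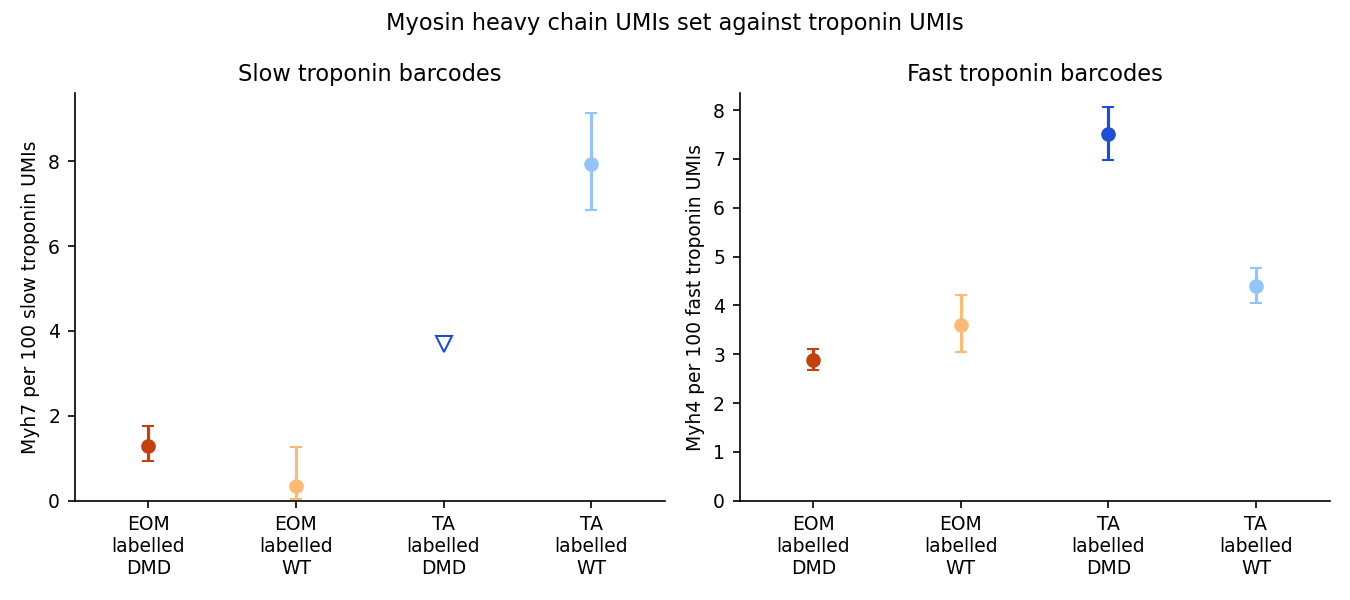
Myh7 UMIs for every 100 slow troponin UMIs in slow barcodes (left) and Myh4 UMIs for every 100 fast troponin UMIs in fast barcodes (right), by library, with 95% counting intervals; the open triangle stands at the limit of 3 counts. Myh7 stands at 1.30 in EOM labelled DMD and 7.94 in TA labelled WT.

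In TA labelled WT, Myh7 and Myh4 seldom shared a barcode. Of the 28 barcodes with Myh7 in TA labelled WT, 2 also had Myh4. In EOM labelled DMD 4 of 14 did. Myh8 was found mostly beside Myh4, in 25 of 30 barcodes of EOM labelled DMD and 7 of 8 of EOM labelled WT. In myofibre-like barcodes of EOM labelled DMD, 17 of 19 with Myh8 held Myh4, which 67.5% of all such barcodes held. By contrast, 29 of the 39 barcodes with Myh3 in EOM labelled DMD held more Myh3 than Myh4. Among barcodes of any class with 10 or more member UMIs, those where Myh4 held 80% or more numbered 25 in EOM labelled DMD, 4 in EOM labelled WT, 21 in TA labelled DMD and 21 in TA labelled WT. Barcodes led in this way by Myh7 numbered 4, all in TA labelled WT, and 99.4% of their troponin UMIs were slow. Myh3 led 1 barcode in each EOM library. In TA labelled DMD, 27 of the 33 Myh3 UMIs lay in 3 barcodes, with 14, 7 and 6, and these also held 56, 184 and 58 Myh4 UMIs.

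Most member UMIs lay in myofibre-like barcodes, with 73.0% in EOM labelled DMD, 68.7% in EOM labelled WT, 71.2% in TA labelled DMD and 73.7% in TA labelled WT. Barcodes left out by the filters on genes and mitochondrial share or as doublets held another 21.7%, 28.3%, 10.7% and 19.0%. Endothelial-like barcodes, which should lack Myh4, had it at 1.35, 0, 2.88 and 11.3 CPM in the same libraries. Satellite-like barcodes had 10.4 CPM in EOM labelled DMD, 6.56 in EOM labelled WT and 6.01 in TA labelled WT.

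**Figure D5:**
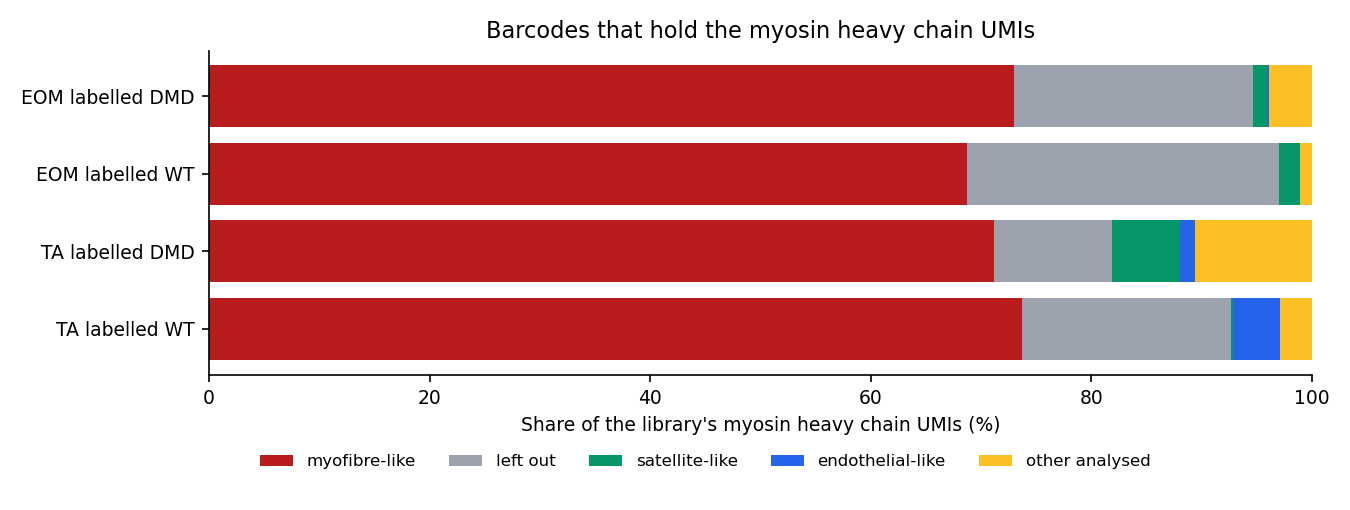
Share of each library's myosin heavy chain UMIs held by myofibre-like barcodes, barcodes left out by the filters or as doublets, satellite-like, endothelial-like and other analysed barcodes. Myofibre-like barcodes hold between 68.7% and 73.7%, and satellite-like barcodes hold 6.16% in TA labelled DMD.

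TA labelled DMD departed from this in satellite-like barcodes, the resident stem cells of muscle, where Myh4 reached 89.0 CPM (69.4 to 112). Its 70 UMIs lay in 39 of 308 barcodes (12.7%), with at most 5 in a barcode, while 10 of 1971 endothelial-like barcodes of that library had the gene (0.507%), at median depths of 1048 and 1731 UMIs. Skeletal actin (Acta1), the most abundant fibre marker in TA, did not accompany it in the ratio of the fibres. For every 100 Acta1 UMIs, satellite-like barcodes of TA labelled DMD held 70.0 Myh4 UMIs (50.8 to 96.0), against 5.64 in its myofibre-like, 8.12 in endothelial-like, 5.60 in FAP-like and 6.16 in mural-like barcodes. In EOM labelled DMD the same ratio was 56.5 (26.3 to 116, on 13 Myh4 UMIs) in satellite-like and 8.95 in myofibre-like barcodes, and 27.9 (15.9 to 47.0, on 19 Myh4 UMIs) in FAP-like ones. In TA labelled WT, endothelial-like barcodes also departed, at 16.5 (11.6 to 22.8) against 3.97 in myofibre-like ones. The source of these UMIs was not tested. These ratios were chosen after values had been seen.

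The satellite-like barcodes of TA labelled DMD came from 2 clusters, with Myh4 at 109 CPM (79.7 to 145) in 62 barcodes and 65.9 CPM (42.2 to 98.1) in 246 barcodes, both above the endothelial-like level. Neither held a UMI of Myh3 or Myh8. A further cluster of 42 myocyte-like barcodes, which express fusion genes and came from TA labelled DMD, had 5 Myh3 UMIs in 5 barcodes (53.5 CPM, 17.4 to 125) and 2 Myh4 UMIs.

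Genes whose levels ran most like Myh4, Myh7 and Myh3, the members with 100 or more UMIs over the 4 libraries, were ranked by Pearson's r of log CPM over 30 sums of a library and a cell class with 50 or more barcodes. Fibres of EOM labelled WT, with 37, were not among them. The sums share libraries and depth, and the fibre sums of the other libraries hold most of the member UMIs. Each r thus rests largely on those few sums and is a description only. For Myh4 these were Klhl40 (0.977) and Klhl41 (0.975), which stabilise thin filament proteins, and Mylpf (0.967). For Myh7 they were Tuba8 (0.965), the mitochondrial creatine kinase Ckmt2 (0.963) and Myl3 (0.894). For Myh3 they were Klk1 (0.968), AC128207.1 (0.904) and Tceal5 (0.894).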

How the data were processed

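Total cells of enzymatically digested muscle were run with 10x Genomics 3' chemistry, per the labels' protocols. The deposited values are whole-number UMI counts per gene and barcode, made by the authors. The file headers name Cell Ranger 4.0.0, and the submitters' processing notes name build rn6. The annotation is not given in the sources used here. A 3' tag reads only the transcript end.

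Counts were summed over all barcodes and over myofibre-like barcodes. Clustering (scanpy) used barcodes with at least 200 genes and at most 20% mitochondrial UMIs, less the highest doublet scores at 0.8% per 1000 cells (the automatic scrublet threshold marked 0 to 16 cells a library and was not used), 2000 variable genes without Myh genes, 30 components, 15 neighbours and Leiden resolution 1.0, and gave 32 clusters named "X-like" from fixed markers. Log2 ratios carry a prior of 10 CPM; a gene was counted past 2-fold with 10 or more UMIs over both libraries. Scripts were tested on simulated counts. Named genes are the members, and genes of fixed lists that were past 2-fold or high in a library. The members and lists were chosen with earlier results of these data known. Alternatives are given in the closing section. Tools were Python 3.11.15, scanpy 1.11.5 and scipy 1.17.1.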

Additional observations from a re-analysis of the deposited data

Results flagged for a closer look

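In 4 results the DMD over WT ratio had opposite signs in EOM and TA. With 1 library per group, these differences were not tested. Over all barcodes, the EOM ratio minus the TA ratio, on the log2 scale with a prior of 10 CPM, was 2.22 for the sum of the 5 genes (1.31 in EOM, -0.91 in TA), 1.90 for Myh4 (1.26 and -0.64) and 2.03 for Myh7 (0.33 and -1.70). In myofibre-like barcodes it was 8.20 for Myh7 (1.63 in EOM, -6.57 in TA). Its EOM part rests on 2 UMIs in 1 barcode of EOM labelled WT (3.97-fold, 1.03 to 33.9). Its TA part rests on 0 UMIs in TA labelled DMD, so its size depends on the prior (-9.88 with a prior of 1 CPM). For Myh4 in fibres the ratio was -0.08 in EOM, within counting error of 0, and 0.90 in TA. The TA value was 0.43 where fibres were taken as barcodes with 10% or more of their UMIs in fibre markers.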

How the results depend on the processing

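No paired analysis was possible because each group has 1 library. No called ratio of a member reversed under an alternative. Of 70 values for the 10 called ratios in myofibre-like barcodes, 66 stayed called and 2 fell under 2-fold. Another 2 stayed past 2-fold but missed the minimum of 10 UMIs. Part of this count was fixed in advance. Dropping the minimum or lowering the prior to 1 CPM cannot take a call away. Leiden resolution 0.5 gave nearly the same fibre barcodes, with 103 in place of 102 in TA labelled DMD. For the sum of the 5 genes, the log2 ratio in EOM labelled DMD over EOM labelled WT was 1.31, with 1.56 for a prior of 1 CPM and 0.94 without mitochondrial and haemoglobin genes in the denominator. In TA labelled DMD over TA labelled WT it was -0.91, with -1.19 in filtered barcodes, -1.48 without those genes and -1.22 without the 10 richest barcodes. In EOM labelled DMD over TA labelled DMD it was 0.54, with 0.71 without those genes and 0.79 without the 10 richest barcodes, and in EOM labelled WT over TA labelled WT it was -1.68, with -1.96 for a prior of 1 CPM. Members past 2-fold in fibres of TA labelled DMD over TA labelled WT numbered 1 in place of 2 where fibres were taken as barcodes with 10% or more of their UMIs in fibre markers, and likewise without the richest barcode: Myh3 had 6 UMIs in each case, under the minimum, with log2 ratios of 2.25 and 2.36. Without a minimum of UMIs the count in EOM labelled WT over TA labelled WT was 4 in place of 2. In EOM labelled DMD over TA labelled DMD, Myh4 was -0.99 where Myh genes entered the clustering, and Myh3 was 0.22 with a 5% marker mark. Myh3, not called in EOM labelled DMD over EOM labelled WT (0.50), was -0.53 with a 10% and -0.38 with a 5% marker mark. Beyond that minimum, the cause of these shifts was not tested. The 37 fibre barcodes of EOM labelled WT limit what that library can show. With 20 or more member UMIs asked of a barcode, those led by Myh4 numbered 12 in EOM labelled DMD, 1 in EOM labelled WT, 8 in TA labelled DMD and 3 in TA labelled WT, and those led by Myh7 numbered 2, in TA labelled WT. Thinned to 1000 UMIs per barcode, which left out 50, 8, 54 and 58 shallower fibre barcodes in the same libraries, Myh4 in fibres was 1663, 2448, 4271 and 2944 CPM, and Myh7 was 115, 34.5, 0 and 583 CPM.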

Other observations

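Among classes other than fibres, Myh6 UMIs were seen in Schwann-like barcodes of every library: 2 UMIs in EOM labelled DMD (4.45 CPM, 0.539 to 16.1), 1 in EOM labelled WT (4.13 CPM), 3 in TA labelled DMD (4.34 CPM, 0.895 to 12.7) and 1 in TA labelled WT (9.39 CPM). In TA labelled DMD these were all 3 of the library's Myh6 UMIs, in 3 of 273 Schwann-like barcodes. The barcodes concerned held 0 Myh4 and 0 Myh7 UMIs in TA labelled DMD. Single UMIs carry little weight, and no class was compared.

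Tenocyte-like barcodes of EOM labelled DMD held 4 Myh3 UMIs (10.5 CPM, 2.86 to 26.9) in 3 of 60 barcodes, beside 1 Myh4 UMI. In the 22 FAP-like barcodes of TA labelled WT, Myh4 had 17 UMIs in 6 barcodes (267 CPM, 155 to 427), with 10.2 Myh4 UMIs for every 100 Acta1 UMIs (5.83 to 16.9).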
